A study of Mus musculus with 32 samples.

Results

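The passage from the early to the late 2-cell stage was followed in single mouse embryos labelled Trp53 MZ-KO, in which neither the mother nor the father had an intact copy of Trp53. Every gene at 1 FPKM (fragments scaled to gene length and library total) or more in at least 6 of the 12 libraries of the early and the late group entered the comparison, which gave 8944 of the 54532 genes measured. The study profiled 32 single eggs and embryos in 6 groups, and 4 of these groups bear on this comparison. They are 6 early and 6 late embryos labelled MZ-KO, and 8 early and 6 late embryos labelled WT. Embryos labelled MZ-KO came from Trp53 KO females mated to Trp53 KO males, so they had neither maternal nor zygotic supply of the intact gene. The KO allele had lost exons 2 to 10, which were removed by crossing Trp53 flox/flox mice to Ddx4::Cre, a Cre line active in the germline. WT embryos came from Trp53 flox/flox animals, so the control group carried the floxed allele and not an untouched one, and the line was kept on a mixed Bl6/C57 background. All embryos were taken as zygotes 24 hours after hCG, the hormone given to trigger ovulation, and grown in KSOM medium. The early group was collected 2 to 3 hours after the first division (28 to 32 hours after hCG) and the late group at 48 hours after hCG. The labels give no age of the females and no number of females per group, so p-values measure the spread between embryos, and littermates within a group would make them too small.

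In the mouse, the egg stores RNA made during its growth, and the zygote lives on this store before its own genes are transcribed. The late 2-cell stage is the time of the major wave of zygotic genome activation, while stored maternal RNA loses its poly(A) tails and is degraded. A short-lived programme of 2-cell genes, many of them induced by the homeobox factor Dux, is switched on and off during this window. Trp53 encodes p53, a transcription factor that activates genes such as Cdkn1a (the cell cycle inhibitor p21) and Mdm2 (the ubiquitin ligase that destroys p53) after DNA damage and other stress.

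Trp53 was low in every early library labelled MZ-KO and higher in every late one. Its values ran from 0.311 to 1.1 FPKM (median 0.856) in early and from 1.48 to 5.39 FPKM (median 2.62) in late libraries, and the groups did not overlap. Trp53 lies at chr11:69580359-69591873 (build mm10), and its FPKM is 1 value for the whole gene, including what lies outside the deleted exons, so it does not test the deletion. In WT libraries Trp53 ran from 2.6 to 9.29 FPKM (median 6.29) in the early and from 0.557 to 7.09 FPKM (median 2.95) in the late group, so Trp53 separated the early groups by label, and the late groups overlapped. The rise in embryos labelled MZ-KO was 1.06 ± 0.21 (SE; adjusted p = 3.18e-04) on the log2(FPKM + 1) scale, which is used for all differences here and understates the change of low genes.

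The libraries of each group resembled each other. The value of 1 read in FPKM put the depth at 15480000 to 22460000 reads in early and 10860000 to 27780000 in late libraries, with late library 6 the shallowest and late library 5 the deepest. The median Spearman correlation of a library with its group was 0.874 to 0.895 in the early and 0.839 to 0.852 in the late group. Summed FPKM was 136431 to 145222 in early and 214605 to 260832 in late libraries, and FPKM are relative to the library, so they do not show the amount of RNA in an embryo. None of the 18 cumulus and granulosa cell markers reached the level for testing (summed FPKM 0.725 to 2.23 early and 0.461 to 1.47 late). Of 13 blood and immune markers, the globin genes Hba-a1 and Hba-a2 and the gene Cd52 were tested and rose, and the summed level of the list was 0.047 to 4.98 early and 35.5 to 157 late. Hbb-bs, Hbb-bt, Ptprc and Tyrobp were listed at 0 in all 12 libraries, and the part of blood cells in any result was not tested. Fgf4, from the list of later embryo and trophectoderm markers, and Prm1, from the sperm and testis list, also rose. Their medians went from 0 to 3.32 and 8.08 FPKM, and Gata3 and Odf2 of the same lists fell.

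Most of the genes that entered the comparison changed between the stages. Of the 8944 genes, 7303 (81.7%) passed the test, with 4324 (48.3%) higher and 2979 (33.3%) lower in late embryos labelled MZ-KO. The counts given below for each gene group are to be read beside these shares. The values of the early and the late libraries did not overlap for 5885 genes (65.8%), with all late libraries above in 3587 (40.1%) and below in 2298 (25.7%). A change of at least 1 on the log2 scale was reached by 3420 genes that rose and 2081 that fell, and a change of at least 3 by 824 that rose and 314 that fell. The median difference over all genes was 0.39, and 0.17 when libraries were scaled by the median ratio of their genes, which left 3972 higher of 7348 called. The entry rule favours a difference in genes seen at 1 stage only: 1478 genes were at 1 FPKM or more in all late and no early library and 639 in all early and no late library. Psmb10, Nop16, Med29, Dppa4, Kdm5b, Btg1 and Ndufb10, named below, are among the 1478. They entered through their late libraries alone, so the rule favoured their rise. By a check on short genes, FPKM take the whole span of a gene as its length. Of the genes compared, 4798 overlap another annotated gene, so they may share reads. Of the genes named by rule, these are Rps27rt, Mt2, Inka1, Oas1e, Gng3, Oosp3, Gm6763, Dnmt1, Cdkn1a, Ddb2, Pabpn1l, Btg4, Orc5, Mrpl43, Mrpl24, Mrpl48, Sdha, Cox6a2, Psmb10, Lsm3, Eif4e3, Med29, Gtf2b, Sox15, Pou5f1, Tet3, Hspe1, Dusp1, Arpc1a, Slc1a1, Slc6a9, Prm1, Odf2, Gata3, Nt5c, Crnkl1 and Gdi2. Exactly 6 libraries carried 2384 of the genes, and a further 943 genes were left out with 5.

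Late libraries held more genes at 1 FPKM or more, and the most abundant genes took a larger share. Genes at 1 FPKM or more numbered 7325 to 7653 (median 7561) per early library and 9013 to 9745 (median 9169) per late library, a difference of 1761 genes. The 100 highest genes of a library held 37.7% to 41.2% of summed FPKM (median 40.02%) in early and 42.5% to 49.7% (median 46.3%) in late libraries. No early library reached the level of a late one in either measure, and the exact two-sided permutation test gave p = 0.00216 for each, the smallest p that 6 against 6 can give.

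Among protein-coding genes with a symbol that is not a clone name and groups that do not overlap, the 12 largest rises were led by homeobox, metallothionein, ribosomal protein and mitochondrial genes. Obox8, a homeobox gene of the Obox cluster at chr7:14331436-14333557, was listed at 0 in 5 early libraries and at 2.89 FPKM in the other, against 383 to 425 FPKM (median 396) in late libraries. The difference was 8.33 ± 0.30 (SE; adjusted p = 2.75e-11). Obox6, of the same cluster, went from a median of 0.114 to 137 FPKM. The Obox genes resemble each other and can share reads, so the values of single members are uncertain. Mt1 and Mt2 encode metallothioneins, small proteins that bind zinc and copper. Mt1 ran from 1.04 to 12.9 FPKM (median 3.28) in early and from 1059 to 1601 FPKM (median 1201) in late libraries, a rise of 8.18 ± 0.42 (SE; adjusted p = 6.59e-10). Mt2 ran from 2.28 to 15.8 FPKM (median 4.39) in early and from 596 to 1034 FPKM (median 853) in late libraries, a rise of 7.09 ± 0.36 (SE; adjusted p = 5.47e-10). Every late library lay far above every early one for both genes, and the late values were within a factor of 2 of each other.

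The metallothionein promoters are shown because both genes are known targets of the zinc-sensing factor Mtf1, which binds the metal response element. Capitals mark each match to TGCGCNC or TGCACNC on either strand; the 300-base windows run from 250 bases before to 50 after the start in RefSeq (build GRCm38.p6), for Mt1 at chr8:94178839-94179138, plus strand and for Mt2 at chr8:94172368-94172667, plus strand.
Mt1: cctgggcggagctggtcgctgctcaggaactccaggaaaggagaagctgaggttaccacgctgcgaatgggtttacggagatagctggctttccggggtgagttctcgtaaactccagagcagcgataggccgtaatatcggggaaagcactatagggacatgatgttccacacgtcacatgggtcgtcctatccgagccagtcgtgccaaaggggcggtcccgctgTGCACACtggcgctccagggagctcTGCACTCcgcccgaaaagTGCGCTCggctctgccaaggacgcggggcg
Mt2: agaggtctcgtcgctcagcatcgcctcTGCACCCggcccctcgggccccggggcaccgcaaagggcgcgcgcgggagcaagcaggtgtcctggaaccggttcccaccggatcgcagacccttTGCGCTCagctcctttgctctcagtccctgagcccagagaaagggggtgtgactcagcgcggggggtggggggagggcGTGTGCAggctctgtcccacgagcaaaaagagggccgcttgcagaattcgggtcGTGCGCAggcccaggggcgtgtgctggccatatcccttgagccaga
Mt1 held 3 matches and Mt2 held 4. Such a match stood in 25.6% of all 27025 promoters of the table and in 36.01% of those of the protein-coding genes compared here, so a match alone is common.

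Among genes of translation, Rpl41, a protein of the large ribosomal subunit, ran from 4.69 to 40.5 FPKM (median 13.3) in early and from 939.9 to 1752 FPKM (median 1163) in late libraries, a rise of 6.33 ± 0.41 (SE; adjusted p = 5.66e-09). Rps27rt, a retrogene of a small-subunit protein, was listed at 0 in 5 early libraries and reached 159 to 249 FPKM (median 185) in the late ones (difference 7.39). Rpl9-ps6, annotated as protein-coding, rose by 6.78. Retrogenes and their parent genes can share reads, so these values are uncertain. Gcsh, the lipoyl-carrying protein of the mitochondrial glycine cleavage system, ran from 0.42 to 1.01 FPKM (median 0.543) in early and from 176 to 256 FPKM (median 197) in late libraries. This was a rise of 6.98 ± 0.16 (SE; adjusted p = 1.08e-12), with early and late values that lay far apart. Uqcc3, an assembly factor of respiratory complex III, rose by 6.67, and Tomm5, a subunit of the import pore of the outer mitochondrial membrane, by 6.60. Inka1, an inhibitor of the kinase Pak4, rose by 6.47, and Trim43a, a tripartite motif gene, by 6.41. All 12 largest rises kept late libraries above early ones without overlap, as the rule for naming them asked.

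**Figure D1:**
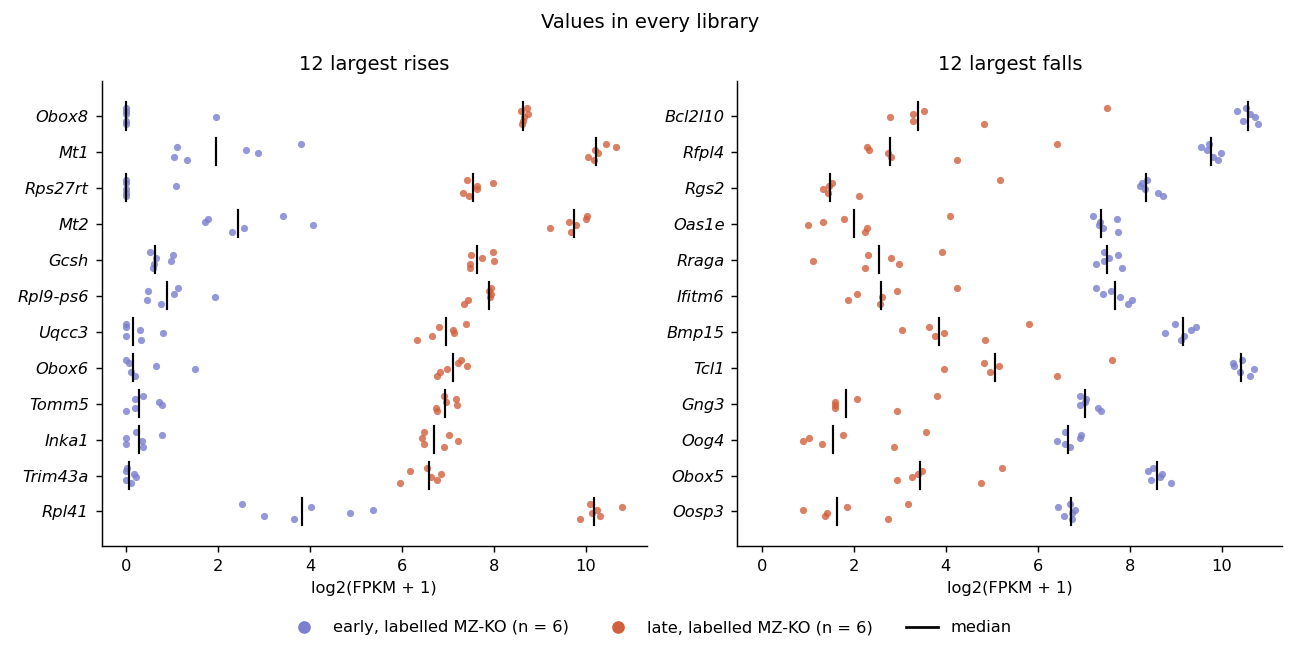
Values of the 12 largest rises (left) and falls (right) in each of 6 early and 6 late libraries labelled MZ-KO, as log2(FPKM + 1); black bars are medians. The groups lie apart in every gene, and in most of the falls 1 or 2 late libraries lie to the right of the other late ones.

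The 12 largest falls, named by the same rule, included many genes known from the oocyte. Bcl2l10, a relative of the apoptosis regulator Bcl2 that is abundant in oocytes, ran from 1294 to 1761 FPKM (median 1528) in early and from 5.91 to 179 FPKM (median 9.57) in late libraries. The difference was -6.38 ± 0.63 (SE; adjusted p = 3.88e-07), and -7.04 without late library 1, which held the highest late value. Rfpl4, a ring finger gene of the oocyte, ran from 751 to 1016 FPKM (median 868) in early and from 3.86 to 84.3 FPKM (median 5.85) in late libraries, with a difference of -6.31 ± 0.58 (SE; adjusted p = 1.85e-07). Rgs2, a regulator of G protein signalling, ran from 299 to 422 FPKM (median 327) in early and from 1.51 to 35.2 FPKM (median 1.8) in late libraries, with a difference of -6.26 ± 0.54 (SE; adjusted p = 1.03e-07). In these 3 genes late library 1 was the highest late library, and it still lay far below all early libraries. Bmp15, a growth factor secreted by the oocyte, fell by 4.96, and Tcl1, a coactivator of the kinase Akt, fell by 4.96. The other large falls were Oas1e (-5.34), a gene of the oligoadenylate synthetase family, Rraga (-4.99), a GTPase that reports amino acids to mTORC1, Ifitm6 (-4.96), the G protein subunit Gng3 (-4.84), the oogenesin Oog4 (-4.79), Obox5 (-4.76) and Oosp3 (-4.76), an oocyte-secreted protein. By FPKM, the highest genes of the early group under the naming rule were Bcl2l10, Omt2b, Tcl1 and Khdc1b, and those of the late group were Mt1, Rpl41, Mt2 and Gm10131. Omt2b, an oocyte gene, stayed abundant, from 1106 to 1725 FPKM (median 1509.8) in early and from 489.7 to 799 FPKM (median 597) in late libraries, although it fell by 1.26.

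The genes with large falls had promoters with few CG dinucleotides. Of 156 protein-coding genes that fell by 3 or more, 127 (81.4%) had a promoter in the RefSeq table, and their median was 5 CG per 300 bases. The median was 19 for all protein-coding genes that fell (1645 of 2031 matched), 21 for all protein-coding genes compared (4890 of 6111, 80.0%) and 7 for all promoters of the table. The GC box GGGCGG stood in 31.5% of the promoters of large falls, against 63.03% of the genes compared and 35.9% of all promoters, on either strand. The ETS core CCGGAAG stood in 7.87%, 22.6% and 9.12%, and the TATA box TATAAA in 13.4%, 7.71% and 14.2%. For the large rises, 78.5% of the genes had a promoter in the table, under the 80% set for such a check, so it is void for them and no share is given. These shares are descriptions without a test. The promoters of the leading oocyte genes Rfpl4 (chr7:5116862-5117161, minus strand) and Bmp15 (chrX:6320675-6320974, minus strand) and of the rising gene Rpl41 (chr10:128549119-128549418, minus strand) are shown as examples, with each CG in capitals (RefSeq, build GRCm38.p6).
Rfpl4: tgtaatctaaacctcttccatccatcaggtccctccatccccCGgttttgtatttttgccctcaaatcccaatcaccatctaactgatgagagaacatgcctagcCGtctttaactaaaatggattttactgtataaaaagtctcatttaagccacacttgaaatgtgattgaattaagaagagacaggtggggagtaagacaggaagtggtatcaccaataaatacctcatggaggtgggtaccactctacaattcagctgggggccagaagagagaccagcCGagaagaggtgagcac
Bmp15: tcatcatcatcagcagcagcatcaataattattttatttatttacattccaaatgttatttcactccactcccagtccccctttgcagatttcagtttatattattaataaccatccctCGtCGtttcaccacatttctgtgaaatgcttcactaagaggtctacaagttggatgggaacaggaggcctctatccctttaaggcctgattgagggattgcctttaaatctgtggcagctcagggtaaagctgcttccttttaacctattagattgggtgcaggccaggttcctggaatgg
Rpl41: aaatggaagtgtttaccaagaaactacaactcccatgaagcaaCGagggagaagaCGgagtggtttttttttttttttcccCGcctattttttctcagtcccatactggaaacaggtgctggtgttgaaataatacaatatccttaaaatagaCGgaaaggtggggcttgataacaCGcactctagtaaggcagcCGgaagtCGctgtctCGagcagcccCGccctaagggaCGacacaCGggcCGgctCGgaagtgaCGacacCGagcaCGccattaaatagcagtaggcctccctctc
Rfpl4 held 3 CG and Bmp15 held 2, both with a TATAAA on either strand, and Rpl41 held 16 CG, under the median of 21 over the genes compared, with a GC box and an ETS core.

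Of 46 oocyte genes whose RNA is stored for the embryo, 43 were tested, 40 fell and 1 rose, with a median difference of -2.85 against 0.39 over all genes. Their summed level was 8349 to 9795 FPKM in early and 1139 to 2028 FPKM in late libraries, without overlap. Nobox (-4.38), a homeobox factor of oocyte growth, H1foo (-4.03), the linker histone of the oocyte, and Zar1 (-3.92), which binds and stores maternal RNA, were among the falls. The zona pellucida genes went apart, with Zp2 at -1.48, Zp1 at -1.25 and Zp3 at 0.77. Zp3 was the member that rose, from 5.23 to 15.8 FPKM (median 9.41) in early and from 11.4 to 24.1 FPKM (median 17.8) in late libraries, and the groups overlapped (adjusted p = 0.0169, and 0.110 with median-ratio scaling). Dppa3, which protects the maternal genome from demethylation, did not pass the test at -0.07, with 443 to 606 FPKM (median 479.6) early and 377 to 559 FPKM (median 474) late, nor did Khdc3 at -0.05, a part of the subcortical maternal complex.

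Genes of the machinery that removes RNA moved in both directions, with 13 of 31 tested higher and 13 lower (41.9% each, median -0.19). Over all genes compared, 48.3% were higher and 33.3% lower. Btg4, the adaptor that brings the CCR4-NOT deadenylase to maternal RNA, ran from 97.2 to 145 FPKM (median 111) in early and from 2.02 to 8.03 FPKM (median 2.95) in late libraries, a fall of 4.61. Pabpn1l, an oocyte poly(A)-binding protein, fell by 4.69. Btg1, a relative of Btg4 expressed in many tissues, ran from 0.089 to 0.678 FPKM (median 0.366) in early and from 10.4 to 26.4 FPKM (median 17.5) in late libraries, a rise of 3.73. Btg4 and Pabpn1l each overlap another annotated gene, and reads of overlapping genes could not be told apart.

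Late libraries differed in the level of the genes that fell. Over the 314 genes that fell by 3 or more, the median level was 4.02 FPKM in late library 1 and 3.52 in late library 6, against 0.914 to 1.83 in the other 4 late libraries and 33.5 to 41.8 in early ones. Late library 1 was the highest late library for 158 of these genes (50.3%) and late library 6 for 96 (30.6%). H1foo stood at 34.1 FPKM in late library 1 and at 1.72 to 3.89 in the other late libraries. Over the 824 genes that rose by 3 or more, summed FPKM was lowest in late libraries 5 (77018) and 6 (80588) and was 95312 to 101321 in the other 4. Late library 6 was also the shallowest library (10860000 reads), but late library 5 was the deepest (27780000) and late library 1 lay between them (18800000). The part of depth in this spread was not tested. All 314 falls kept passing the test without late library 1, where 344 genes fell by 3 or more. This was no independent check, because the 314 were picked with that library included and it was the highest late library for 158 of them.

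**Figure D2:**
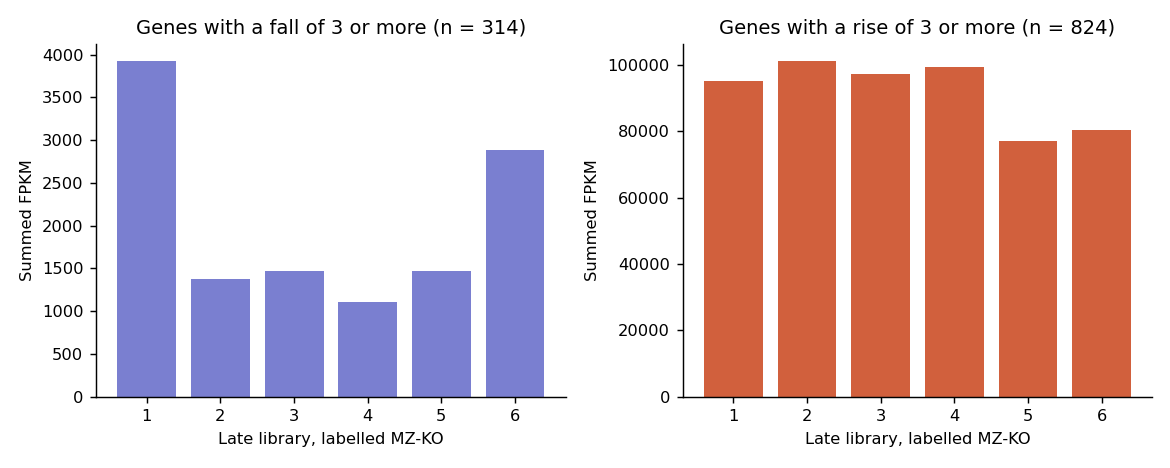
Summed FPKM (bars) of the 314 genes with a fall of 3 or more (left) and the 824 with a rise of 3 or more (right) in each late library labelled MZ-KO. Late libraries 1 and 6 hold the most of the falling genes, and late libraries 5 and 6 the least of the rising ones.

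Genes for building ribosomes rose together. Of 70 tested cytosolic ribosomal protein genes, 67 rose and 0 fell, with a median of 2.47 against 0.39 over all genes, and their summed level went from 141 to 239 FPKM early to 2550 to 3601 FPKM late. Of 42 tested genes of the nucleolus and ribosome biogenesis, 38 rose and 0 fell (median 1.81). Nop16, a nucleolar protein of large-subunit assembly, ran from 0 to 0.132 FPKM (median 0.055) in early and from 34.7 to 76.01 FPKM (median 57.2) in late libraries, a rise of 5.73 ± 0.17 (SE; adjusted p = 5.03e-12). Its early values were near 0 in every library, and every late library lay far above them. Translation initiation factors were more mixed, with 34 of 47 higher and 9 lower (median 1.47). Eif3g, a subunit of the scanning factor eIF3, rose by 3.75, from a median of 4.25 to 73.3 FPKM. Eif4e1b, the cap-binding protein of the oocyte, ran from 41.3 to 66 FPKM (median 59.7) in early and from 0.287 to 4.01 FPKM (median 0.869) in late libraries, a difference of -4.76 ± 0.28 (SE; adjusted p = 1.84e-09). Eif4e3, another cap-binding protein, fell by 2.24.

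**Figure D3:**
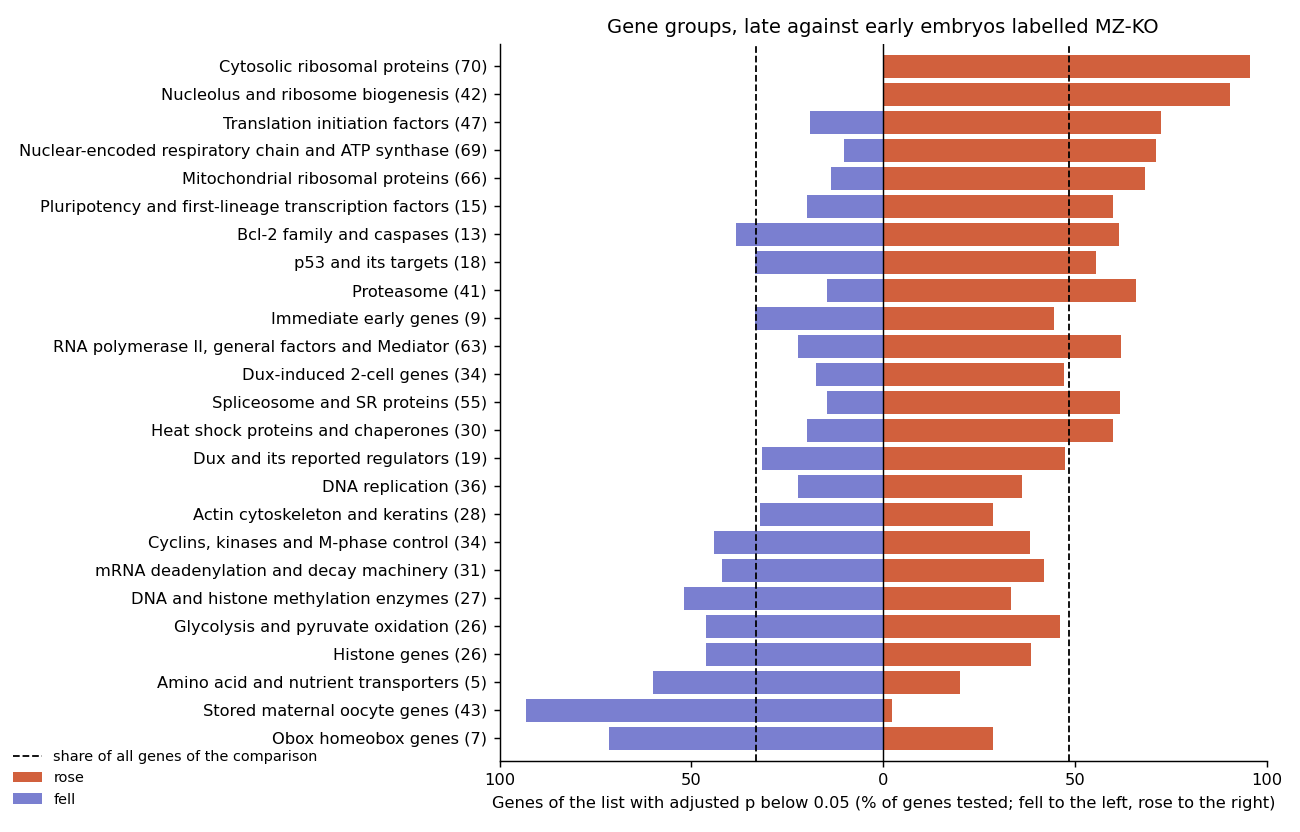
Share of tested genes of each list that rose (right, red) or fell (left, blue) between early and late embryos labelled MZ-KO, ordered by median difference, with the number tested in brackets; dashed lines mark the shares over all 8944 genes (48.3% higher, 33.3% lower). Cytosolic ribosomal proteins and the nucleolus lie above the dashed line for rises with no falls, and stored maternal genes lie at the other end.

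Of 63 tested genes of RNA polymerase II, its general factors and Mediator, 39 rose (61.9%) and 14 fell (22.2%), with a median of 0.78. Over all genes compared, 48.3% rose and 33.3% fell. Med29, a Mediator subunit, ran from 0 to 0.409 FPKM (median 0.248) in early and from 30.6 to 38.7 FPKM (median 34.03) in late libraries, a rise of 4.88 ± 0.13 (SE; adjusted p = 2.72e-12). Med30, another Mediator subunit, went the other way, from 18.4 to 25.1 FPKM (median 19.7) in early and from 0.327 to 2 FPKM (median 0.407) in late libraries, a difference of -3.63 ± 0.23 (SE; adjusted p = 3.74e-09). The general factor Gtf2b, which places the polymerase at the start site, also fell, by 3.47. Spliceosome and SR protein genes counted 34 rises and 8 falls of 55 (61.8% and 14.5%, median 0.74). Snrnp25, a protein of the minor spliceosome, rose by 4.81, while Snrnp27 (-1.73) and Lsm3 (-1.47), both of the U6 or tri-snRNP particles, fell.

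All 7 Obox genes on the list changed, against 81.7% of all genes compared. Obox6 and Obox8 rose, and Obox1 (-3.07), Obox2 (-4.70), Obox3 (-2.46), Obox5 and Obox7 (-4.72) fell. Among pluripotency and first-lineage transcription factors, 9 of 15 tested rose and 3 fell. The rises were Sox15 (3.16), Klf2 (2.41), Klf5 (2.12), Klf4 (1.81), Nr2c2 (1.76), Klf9 (1.75), Zfp42 (1.60), Nr5a2 (1.23) and Tfap2c (1.13). Pou5f1, which encodes the pluripotency factor Oct4, ran from 25.01 to 60.6 FPKM (median 39.8) in early and from 2.23 to 7.46 FPKM (median 3.35) in late libraries, a difference of -3.09 ± 0.29 (SE; adjusted p = 1.95e-07). Klf17 (-1.47) and Gata3 (-1.06) fell as well. Pou5f1 and Sox15 overlap other annotated genes, so part of their reads may belong to those.

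Dux itself, annotated as Duxf3, did not enter the comparison, because it reached 1 FPKM in 5 libraries, all of them early. It ran from 0.764 to 8.81 FPKM (median 4.18) in early and from 0 to 0.338 FPKM (median 0) in late libraries, with late values of 0 in 5 of 6 libraries. Of 34 tested genes that Dux is known to induce, 16 rose (47.1%) and 6 fell (17.6%), with a median of 0.74. The share that rose was close to the 48.3% over all genes, and the share that fell was under their 33.3%. B020004C17Rik ran from 0 to 3.87 FPKM (median 0.751) in early and from 199.7 to 359 FPKM (median 265) in late libraries, a rise of 7.21 ± 0.32 (SE; adjusted p = 1.58e-10). Tdpoz4 (4.81), Tdpoz1 (4.12), Usp17lb (3.59), Slc34a2 (3.30) and Zscan4a (1.22) also rose. Tcstv1 fell by 2.66, from 36.6 to 97.2 FPKM (median 52.7) in early and from 3.34 to 13.2 FPKM (median 10.1) in late libraries, and Gm6763 fell by 1.97, with overlapping groups. The Zscan4, Tdpoz and Usp17l genes are multicopy families and Duxf3 lies in a repeat array, so their single values are uncertain. Of 19 tested genes on the list of Dux and its reported regulators, 9 rose (47.4%) and 6 fell (31.6%), close to the shares over all genes. Dppa4, with its partner Dppa2 an activator of Dux, ran from 0.452 to 0.893 FPKM (median 0.546) in early and from 25.1 to 37.03 FPKM (median 29.2) in late libraries, a rise of 4.25 ± 0.14 (SE; adjusted p = 1.18e-11). Dppa2 rose by 2.09 and Uhrf1, a cofactor of maintenance DNA methylation, fell by 1.90.

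Nuclear genes of mitochondria and of the proteasome mostly rose. Of 66 tested mitochondrial ribosomal protein genes, 45 rose and 9 fell (68.2% and 13.6%, median 1.34). Of 69 tested respiratory chain and ATP synthase genes, 49 rose and 7 fell (71.0% and 10.1%, median 1.39). Over all genes compared, 48.3% rose and 33.3% fell. Mrpl43, of the large mitochondrial subunit, ran from 0 to 3.63 FPKM (median 1.23) in early and from 51.1 to 106 FPKM (median 91.3) in late libraries, a rise of 5.25, while Mrpl24 (-1.49) and Mrpl48 (-1.10) fell. Ndufb10, an accessory subunit of respiratory complex I at chr17:24722060-24724478, ran from 0.185 to 0.852 FPKM (median 0.605) in early and from 19.3 to 32.4 FPKM (median 26.8) in late libraries, a rise of 4.10 ± 0.16 (SE; adjusted p = 3.88e-11). The late values of Ndufb10 lay above all early ones. Sdha, the catalytic subunit of complex II, fell by 2.42, and Cox6a2, a complex IV subunit known from muscle, fell by 2.36. In the proteasome, 27 of 41 tested genes rose and 6 fell (65.9% and 14.6%, median 0.94). Psmb10, a catalytic subunit of the immunoproteasome, was listed at 0 in 4 early libraries and ran from 0 to 0.096 FPKM (median 0) in early and from 18.8 to 33.6 FPKM (median 28.4) in late libraries, a rise of 4.76 ± 0.15 (SE; adjusted p = 7.04e-12). Psmd10 (-2.54) and the proteasome inhibitor Psmf1 (-1.78) fell. The 37 genes of the mitochondrial genome in the table were listed at 0 in all libraries and could not be compared.

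Histone genes moved in both directions, with 10 of 26 tested higher (38.5%) and 12 lower (46.2%), and a median of -0.54. Over all genes compared, 48.3% were higher and 33.3% lower. H2afz, the variant H2A.Z found at start sites, ran from 1.93 to 6.9 FPKM (median 4.25) in early and from 78.6 to 99.3 FPKM (median 92.4) in late libraries, a rise of 4.21 ± 0.20 (SE; adjusted p = 2.96e-10), and its relative H2afv rose by 2.88. H1foo ran from 55.1 to 123 FPKM (median 83.6) in early and from 1.72 to 34.1 FPKM (median 2.94) in late libraries, a difference of -4.03 ± 0.52 (SE; adjusted p = 5.83e-06), and -4.58 without late library 1. Of 27 tested DNA and histone methylation enzymes, 9 rose and 14 fell (median -0.38). Kdm5b, which removes methyl groups from histone H3 lysine 4, ran from 0.121 to 0.334 FPKM (median 0.20) in early and from 5.51 to 9.41 FPKM (median 6.74) in late libraries, a rise of 2.71 ± 0.13 (SE; adjusted p = 3.00e-10). Prmt5, an arginine methyltransferase, rose by 2.22. The maintenance DNA methyltransferase Dnmt1 fell by 1.26 and Tet3, the oxidase that acts on the paternal genome of the zygote, by 1.96.

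Cell cycle genes moved in both directions, with 13 of 34 tested cyclins, kinases and M-phase genes higher (38.2%) and 15 lower (44.1%). Their median was -0.11, and over all genes compared 48.3% were higher and 33.3% lower. Ccne1, the cyclin of the G1 to S step, ran from 0.065 to 1.43 FPKM (median 1.02) in early and from 41.8 to 58.6 FPKM (median 49.98) in late libraries, a rise of 4.78 ± 0.19 (SE; adjusted p = 6.51e-11). Cdk1, the kinase of mitotic entry, ran from 2.12 to 4.53 FPKM (median 3.18) in early and from 24.2 to 43.7 FPKM (median 31.98) in late libraries, a rise of 2.96 ± 0.20 (SE; adjusted p = 7.78e-09). Chek1, the kinase of the replication checkpoint, fell by 3.52, from a median of 57.8 to 4.1 FPKM. Of 36 tested DNA replication genes, 13 rose and 8 fell (36.1% and 22.2%, median 0.08). Rpa2, of the single-strand binding complex, stood at 2.87, the clamp loader subunit Rfc3 at -2.32 and the origin recognition subunit Orc5 at -2.05.

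Heat shock and chaperone genes counted 18 rises and 6 falls of 30 (60% and 20%, median 0.66), against 48.3% and 33.3% over all genes. The small heat shock protein Hspb1 stood at 3.58 and the J-domain protein Dnajb1 at -1.27. Glycolysis and pyruvate oxidation counted 12 rises and 12 falls of 26 (46.2% each, median -0.41). Ldhb, the lactate dehydrogenase subunit abundant in oocytes, ran from 63.05 to 113 FPKM (median 94.1) in early and from 5.23 to 15.03 FPKM (median 8.13) in late libraries, a fall of 3.17, and Idh3g, of the citric acid cycle, rose by 4.11. Among 9 immediate early genes tested, 4 rose and 3 fell, with Ier3 at 3.23, the phosphatase gene Dusp1 at -2.79 and the zinc finger gene Egr1 at -1.64. Actin cytoskeleton and keratin genes counted 8 rises and 9 falls of 28, with Arpc1a (2.46) and Tpm3 (2.00) up and Pfn2 (-2.26) down. Of 47 amino acid and nutrient transporters, 5 were tested, the glutamate transporter Slc1a1 rose by 1.37 and 3 fell, among them the glycine transporter Slc6a9 (-1.49).

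Known target genes of p53 rose and fell in the embryos labelled MZ-KO, and Cdkn1a rose the most. Cdkn1a, at chr17:29090976-29100727, ran from 0.666 to 3.39 FPKM (median 1.37) in early and from 13.8 to 36.8 FPKM (median 26.5) in late libraries, a rise of 3.45 ± 0.27 (SE; adjusted p = 2.56e-08). Every late library lay above every early one, with the lowest late value in late library 1. Mdm2 ran from 3.06 to 6.28 FPKM (median 4.71) in early and from 8.52 to 10.47 FPKM (median 10.2) in late libraries, a rise of 0.95 ± 0.15 (SE; adjusted p = 5.28e-05), again without overlap. Of 32 genes on the list of p53 and its targets, 18 were tested, 10 rose (55.6%) and 6 fell (33.3%), against 48.3% and 33.3% over all genes, and the median was 0.96 against 0.39. Besides Cdkn1a, Mdm2 and Trp53, the rises were Sesn2 (3.01), Gadd45a (2.15), Tigar (1.94), Ei24 (1.94), Bax (1.04), Ccng1 (0.98) and Aen (0.97). The falls were Ddit4 (-1.70), Ddb2 (-1.33), Trp53inp1 (-0.72), Rrm2b (-0.67), Btg2 (-0.53) and Mdm4 (-0.50), and Plk2 (0.19) and Gtse1 (-0.42) did not pass the test. The calls of Btg2 and Mdm4 were lost under some of the other settings.

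All 13 tested genes of the Bcl-2 family, the caspases and their inhibitors changed, 8 upward (61.5%) and 5 downward (38.5%). Over all genes compared, 81.7% changed, 48.3% upward and 33.3% downward. Mcl1, which protects from apoptosis, ran from 0.415 to 1.53 FPKM (median 0.928) in early and from 32.6 to 38.3 FPKM (median 34.03) in late libraries, a rise of 4.21 ± 0.17 (SE; adjusted p = 8.39e-11). Bcl2l2 (2.47), Cycs (2.03), Bad (1.63), Bcl2l11 (1.26), Bid (1.25), Diablo (1.17) and Bax also rose. The falls were Bcl2l10, Birc3 (-2.91), Bik (-2.12), Bcl2l1 (-1.51) and Birc5 (-1.21). Both kinds stood on both sides, but unevenly. Most rises were of death-promoting members, with Mcl1 and Bcl2l2 as protective ones. Most falls were of protective members, with Bik as a death-promoting one. This split was not tested.

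A few abundant genes had intervals close to 0. The 5 genes with the narrowest intervals among those at a mean of 10 FPKM or more that did not pass the test were Gdi2, Zmynd19, Dppa3, Txndc9 and Ash2l. Gdi2, which recycles Rab GTPases, differed by 0.10 (95% interval -0.17 to 0.37). Zmynd19, a zinc finger gene, differed by 0.02 (95% interval -0.25 to 0.30). Txndc9, a thioredoxin-like gene, differed by -0.10 (95% interval -0.38 to 0.19). Ash2l, a subunit of histone H3 lysine 4 methyltransferases, differed by 0.19 (95% interval -0.11 to 0.48). Dppa3, the maternal factor named above, differed by -0.07 (95% interval -0.35 to 0.21). With median-ratio scaling the differences of Gdi2, Zmynd19 and Ash2l turned negative, and Dppa3 (-0.37) and Txndc9 (-0.38) passed the test as falls.

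The stage changes of embryos labelled MZ-KO were set beside those of WT embryos, which had no libraries in common with them. Across the 8944 genes, Pearson's r between the stage differences of both genotypes was 0.932, as a description over genes, which are not independent replicates. In WT alone, 7923 of 9319 genes tested (85.0%) were called. Of 8203 genes tested in each genotype, 6096 were called in both, 6027 of them in the same direction. The difference between the 2 stage changes was tested itself, as late minus early in MZ-KO less late minus early in WT, over 26 libraries. It passed for 2363 of 11558 genes (20.4%). Of the 8944 genes compared here, 2014 (22.5%) passed, 1275 higher (14.3%) and 739 lower (8.26%), where higher means a more upward stage change in embryos labelled MZ-KO. This balance depended on the scaling of the libraries, since median-ratio scaling gave 786 higher and 1316 lower and moved the median from 0.09 to -0.08. WT early library 3 stood apart from its group (median Spearman correlation 0.812), and 2419 of the genes tested passed without it.

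**Figure D4:**
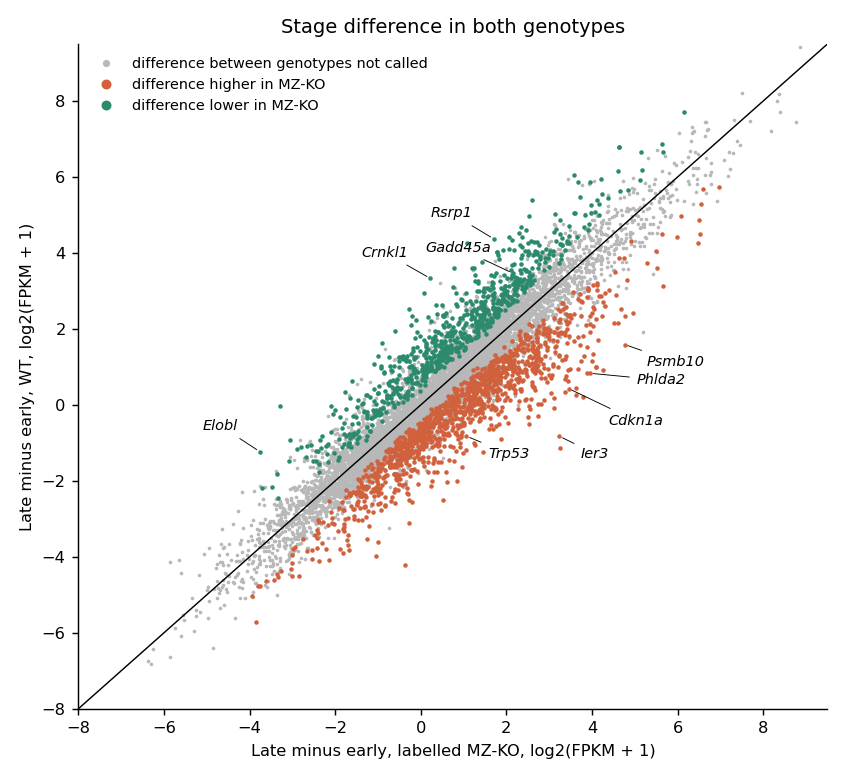
Stage difference (late minus early, log2(FPKM + 1)) of the 8944 genes in embryos labelled MZ-KO (horizontal) and WT (vertical); the line marks equal differences, and colour marks genes whose difference between genotypes passed the test. Most genes lie near the line, Cdkn1a, Ier3 and Psmb10 lie below it and Crnkl1 and Rsrp1 above it.

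The genes with the most upward stage change in MZ-KO relative to WT were Ier3, Nt5c, Psmb10, Ndufb10 and Phlda2. Ier3, an immediate early gene, ran from 0 to 3.97 FPKM (median 0.989) in early and from 13.3 to 25.8 FPKM (median 16.9) in late libraries labelled MZ-KO, and from 0 to 17.3 FPKM (median 1.67) in WT early and from 0 to 7.41 FPKM (median 0) in WT late libraries. In WT, 4 of the 6 late libraries were at 0, and the early groups of both labels overlapped. The difference between the stage changes was 4.06 ± 0.82 (SE; adjusted p = 0.00106). Nt5c, a cytosolic nucleotidase, ran from 0 to 0.214 FPKM (median 0) in early and from 4.32 to 32.9 FPKM (median 22.6) in late libraries, while WT late libraries held 0.341 to 2.27 FPKM (median 0.824), a difference between the stage changes of 3.33 ± 0.40 (SE; adjusted p = 3.68e-06). Psmb10 reached 28.4 FPKM (median) in late libraries labelled MZ-KO and 3.05 in WT late ones, which gave 3.18 ± 0.28 (SE; adjusted p = 1.22e-07). For Ndufb10 these medians were 26.8 and 2.82 FPKM, with 3.11 ± 0.34 (SE; adjusted p = 1.12e-06). Phlda2, an imprinted gene that restrains placental growth, ran from 4.51 to 7.68 FPKM (median 6.37) in early and from 38.4 to 283 FPKM (median 115) in late libraries, against 1.57 to 20.7 FPKM (median 12.4) in WT late libraries, with 3.11 ± 0.71 (SE; adjusted p = 0.00296). In each of the 5 genes the late libraries labelled MZ-KO lay above all WT late libraries.

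Among the largest differences in the other direction were Crnkl1, Rsrp1, Zswim3 and Elobl. Crnkl1, a splicing factor, ran from 13.6 to 18.5 FPKM (median 16.1) in early and from 14.1 to 22.97 FPKM (median 18.9) in late libraries labelled MZ-KO, and from 0.659 to 3.52 FPKM (median 1.16) in WT early and from 15.3 to 31.9 FPKM (median 22.1) in WT late libraries. The late groups overlapped and the early groups did not, and the difference between the stage changes was -3.12 ± 0.27 (SE; adjusted p = 7.99e-08). Rsrp1, an arginine and serine rich protein gene, rose by 1.71 to a median of 21.4 FPKM, against 91.2 in WT late libraries, with -2.66 ± 0.40 (SE; adjusted p = 5.86e-05). Zswim3 did not pass the stage test (-0.61) and differed from WT by -2.55. Elobl, a relative of elongin B, fell from a median of 532 to 32.5 FPKM, and in WT from 308 to 111, with -2.53 ± 0.54 (SE; adjusted p = 0.00148). Crnkl1 overlaps another annotated gene.

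By gene group, the higher calls outnumbered the lower ones most among mitochondrial genes. Over all genes compared, 22.5% were called, 14.3% higher and 8.26% lower. Of 66 mitochondrial ribosomal protein genes, 33 were higher and 1 lower (23 and 3 with median-ratio scaling), with a median of 0.78 against 0.09 over all genes compared. Of 69 respiratory chain and ATP synthase genes, 27 were higher and 1 lower (17 and 3 with that scaling), with a median of 0.62. Examples are Mrpl36 (2.77), Mrpl28 (2.45), Cox8c (2.71), Atp5d (2.00) and Cox7b (1.98), named after their values were seen, and Mrpl4 (-0.87) and Atp5f1 (-0.71) were the lower ones. For the proteasome the counts were 13 higher and 0 lower of 41, but 5 and 4 with median-ratio scaling, so this split depended on the scaling. In the nucleolus, 1 was higher and 8 were lower of 42 (1 and 18 with that scaling), among the lower ones Utp18 (-1.14), Mybbp1a (-0.98) and Npm1 (-0.94), and Wdr12 (0.99) was the higher one. Of 34 Dux-induced genes, 0 were higher and 3 lower (0 and 7 with that scaling, 0 and 5 without WT early library 3). The 3 lower ones were Gm13078, Sp110 and Slc34a2. The lower share of 8.82% was close to the 8.26% over all genes compared, of which 14.3% were higher. The median of the list was -0.68 (-0.92 with that scaling), against 0.09 (-0.08) over all genes compared. Summed FPKM of the 43 listed genes was 670 to 1114 in late libraries labelled MZ-KO and 1372 to 3249 in WT late ones, without overlap. In early libraries it was 108 to 381 and 89.9 to 1048, with overlap. All 3 tested blood markers were higher, Hba-a2 with 2.54, and the part of blood RNA in the other differences was not tested.

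Of 18 tested genes among p53 and its targets, 5 had a more upward and 3 a more downward stage change than in WT (4 and 8 with median-ratio scaling). Together these were 44.4%, against 22.5% over all genes compared (14.3% higher and 8.26% lower). Cdkn1a went from 1.52 to 13.99 FPKM (median 2.79) in WT early and from 1.22 to 11.5 FPKM (median 4.75) in WT late libraries, and the difference between the stage changes was 3.02 ± 0.53 (SE; adjusted p = 3.02e-04). The early groups overlapped, and every late library labelled MZ-KO lay above all WT late libraries. The highest WT early values of Cdkn1a and of Ier3 were both in WT early library 3, and both differences kept their call without it. Cdkn1a overlaps another annotated gene, whose reads could not be told apart from its own. The other higher ones were Trp53 (1.88), Ccng1 (1.44), Rrm2b (0.69) and Mdm2 (0.69; adjusted p = 0.0475, and 0.187 with median-ratio scaling). The lower ones were Gadd45a (-1.32), Tigar (-1.11) and Aen (-0.81), which rose less than in WT. Gadd45a lost its call with a pseudocount of 0.1 and Aen without a filter, while Tigar kept its call in every setting run. Mdm2 also lost its call when most of the single libraries were left out. Late medians labelled MZ-KO and WT were 11.9 and 29.05 FPKM for Gadd45a, and 8.15 and 18.3 FPKM for Tigar. Trp53 overlapped between the late groups, so these differences are between libraries as they were labelled.

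**Figure D5:**
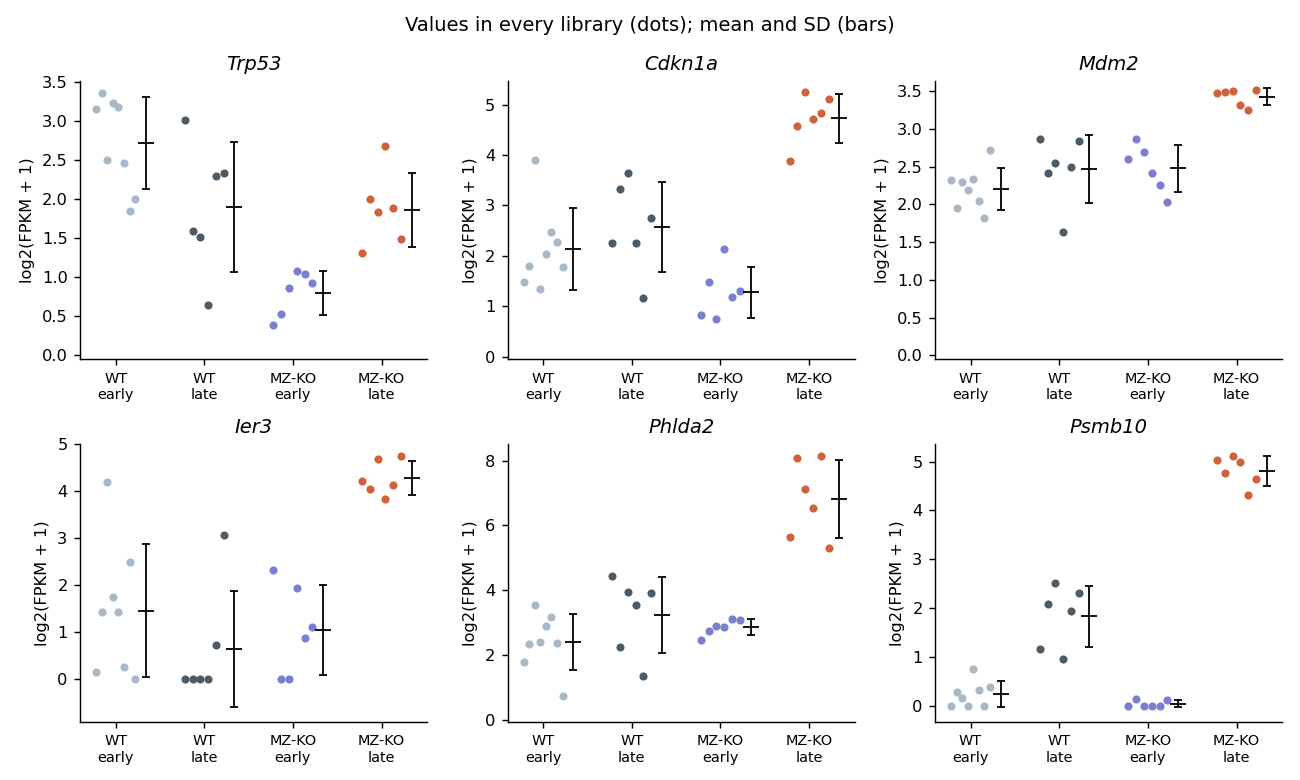
Values of Trp53, Cdkn1a, Mdm2, Ier3, Phlda2 and Psmb10 in every library of the 4 groups as log2(FPKM + 1) (dots; 8 WT early and 6 in each other group), with mean and SD. In late libraries labelled MZ-KO, Cdkn1a, Mdm2, Ier3, Phlda2 and Psmb10 lie above all WT late libraries, and Trp53 overlaps them.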

How the data were processed

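Single eggs and embryos were lysed one by one and sequenced from SMART-seq v4 libraries, per the labels' protocols. The deposited table gives FPKM per gene and library, made by the authors; TopHat2, DESeq, DESeq2 and mm10 are named per the submitters' processing notes, with versions and roles not given in the sources used here. The length behind the FPKM was checked on low values of genes with a span of at most 2000 bases. At a depth chosen to make values whole, 99.5% to 99.9% were whole multiples (within 0.1 read) of 1 read over the span. So the deposited FPKM were taken to use the span as length. Longer genes were not checked, and in genes without introns span and exon length are the same. The column headers carry the group and no replicate number, so libraries are numbered by column order within a group, as names only.

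Genes at 1 FPKM or more in 6 of the 12 libraries were tested on log2(FPKM + 1), computed here from the deposited FPKM, with limma 3.58.1 (trend and robust; statmod 1.5.0, R 4.3.3) and Benjamini-Hochberg adjustment over all 8944 genes at 0.05. Only the 2 groups compared entered that fit. The difference between the stage changes of MZ-KO and WT was a contrast over 26 libraries and 11558 genes. Adjusted p-values in the text come from these limma fits. Symbols and positions came from GENCODE mouse release 21 (mm10), which held 54495 of the 54532 identifiers. Promoters came from RefSeq. Python 3.11.15, numpy 2.4.6, pandas 2.3.3 and matplotlib 3.10.9 were used for the rest, and the fit was tested on simulated data.

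Named genes are the 12 largest rises and falls, the 4 highest genes of each stage, the largest rise and fall and up to 2 opposing genes of each of 30 lists (1266 entries), the 5 largest differences from WT in each direction, the 5 uncalled abundant genes with the narrowest intervals, and Trp53, Mdm2, Cdkn1a and Duxf3; 1 gene that this rule names is not reported here. The comparison and the lists were chosen with earlier results of these data known. Alternatives were another pseudocount, other filters, median-ratio scaling, limma without trend and robust, all 6 groups in 1 fit, exact permutation per gene, other detection levels and top-gene numbers, each library left out, and, chosen after seeing the data, genes that overlap no other gene. Of the 8944 genes, 4798 overlap another annotated gene, and 37 of the 109 named genes do. Depth beyond the reads behind each scale is not given, so no counting intervals are printed.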

Additional observations from a re-analysis of the deposited data

Results flagged for a closer look

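In 18 of 222 groups of 6 values, 1 library lay apart from the other 5 by Dixon's test at the 95% level. Chance alone does this for 5% of groups of normally distributed values, which FPKM need not be. In 6 of them the other 5 libraries were listed at 0, where this test flags any value above 0. The outcome was fixed there, so the count of 18 shows no excess over 5%. These 6 were Obox8 in early library 4 (2.89 FPKM), Rps27rt in early library 3 (1.1 FPKM), Prm1 in early library 3 (0.043 FPKM), Fgf4 in early library 4 (0.013 FPKM), Nt5c in early library 3 (0.214 FPKM) and Duxf3 in late library 1 (0.338 FPKM). Rgs2 in late library 1 was 35.2 FPKM, against 1.51 to 3.31 in the others and Omt2b in early library 2 was 1106 FPKM, against 1472 to 1725 in the others. Gm10131 in early library 5 was 316 FPKM, against 343 to 356 in the others and Gm6763 in late library 4 was 1.93 FPKM, against 0.117 to 0.521 in the others. Ddit4 in late library 6 was 0.171 FPKM, against 2.13 to 3.51 in the others and Ddb2 in late library 2 was 0.60 FPKM, against 1.046 to 1.27 in the others. Mrpl43 in late library 3 was 51.1 FPKM, against 81.1 to 106 in the others and Eif4e1b in early library 3 was 41.2 FPKM, against 56.04 to 66 in the others. H1foo in late library 1 was 34.1 FPKM, against 1.72 to 3.89 in the others and H2afv in late library 5 was 8.69 FPKM, against 19.5 to 24.9 in the others. Birc3 in late library 1 was 4.9 FPKM, against 1.99 to 2.78 in the others and Nt5c in late library 5 was 4.32 FPKM, against 17.6 to 32.9 in the others. Late library 1 was the library apart for Rgs2, H1foo, Birc3 and Duxf3. No cause was tested.

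Of 109 named genes with the difference between genotypes tested, 27 passed the test of the stage change in embryos labelled MZ-KO less that in WT (limma, adjusted p below 0.05 over all genes). The stage change was more upward in embryos labelled MZ-KO for Ier3 (4.06), Nt5c (3.33), Psmb10 (3.18), Ndufb10 (3.11), Phlda2 (3.11), Cdkn1a (3.02), Hba-a2 (2.54), Inka1 (2.20), Trp53 (1.88), Snrnp25 (1.52), Gcsh (1.23), Mrpl24 (1.09), Lsm3 (1.06), Khdc1b (0.98), H2afv (0.94), Tomm5 (0.92), Ash2l (0.75), Mdm2 (0.69), Zmynd19 (0.67). It was more downward for Crnkl1 (-3.12), Rsrp1 (-2.66), Zswim3 (-2.55), Elobl (-2.53), Gtf2b (-1.32), Omt2b (-0.996), Cdk1 (-0.91), Tpm3 (-0.70). Of the 32 called differences among these and the p53 genes, 24 kept their call with median-ratio scaling and 31 without WT early library 3. In every setting run, 21 of the 32 kept their call, and Aen, Ash2l, Gadd45a, Gcsh, H2afv, Khdc1b, Mdm2, Omt2b, Snrnp25, Tomm5 and Zmynd19 lost it in at least 1.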

How the results depend on the processing

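Without a filter, 14095 genes were called between the stages (7910 higher, 6185 lower), and with a filter at 5 FPKM 3306 were (1959 and 1347). On genes that overlap no other gene, a choice made after seeing the data, 3416 were called (2001 and 1415). The other settings kept the counts within 1.5 times. Leaving out 1 library gave 7156 to 7282 calls (4257 to 4320 higher, 2880 to 2976 lower), a difference in detected genes of 1665 to 1812 and in the share of the 100 highest genes of 5.76 to 7.20 points. For the difference from WT, 1392 higher and 971 lower calls over all genes tested became 628 lower calls with a pseudocount of 0.1, which kept the higher calls within 1.5 times. The filter at 5 FPKM gave 1194 (644 higher, 550 lower), median-ratio scaling 859 higher and 1676 lower, and genes without overlap 1070 (644 and 426). Leaving out 1 library gave 2089 to 2555 (1252 to 1479 higher, 833 to 1076 lower).

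With median-ratio scaling the stage differences of Crnkl1 (-0.073), Gdi2 (-0.18), Zmynd19 (-0.27) and Ash2l (-0.10) changed sign, none past the threshold. Zmynd19 also did so without MZ-KO early library 5 (-0.0039) or late library 6 (-0.017), and over the libraries left out it ran from -0.017 to 0.089. Stricter filters tested fewer genes, and the part of this in their smaller counts was not tested. The cause of the other changes was not tested either. Of 112 called stage changes, 109 kept their call in every setting run, the exceptions being Btg2, Mdm4 and Zp3. No paired analysis was possible because the columns carry no replicate numbers.

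FPKM are relative to the library total, overlapping or multicopy genes share reads, and single embryos of unstated litters set the spread.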

Other observations

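Genes annotated as pseudogenes took a larger share of the late libraries, an observation made after the values were seen. Over all genes measured, they held 34.9% to 38.1% of summed FPKM in early and 54.7% to 62.6% in late libraries labelled MZ-KO. Protein-coding genes held 46.7% to 49.7% and 27.3% to 31.4%. Of 1467 pseudogenes compared, 843 rose and 366 fell, with a median difference of 1.14 against 0.39 over all genes. Of the 12 most abundant in late libraries, 7 lie side by side on chromosome 1, between positions 24611535 and 24616197 (mm10), and match genes of the mitochondrial genome. Gm10925, which matches mt-Atp6 over its full length, ran from 1915 to 3991 FPKM in early and from 10833 to 18264 FPKM in late libraries, and Gm28437, which matches mt-Co3, ran from 1245 to 2352 FPKM in early and from 4982 to 8613 FPKM in late libraries. The others of this stretch are Gm28661 (mt-Co2), Gm29216 (mt-Co1), Gm28438 (mt-Nd3), Gm10222 (mt-Nd4l) and Gm28439 (mt-Nd4). Together these 7 held 3.9% to 7.27% of summed FPKM in early and 13.7% to 18.8% in late libraries labelled MZ-KO, and 8.53% to 12.2% in WT late libraries. WT early libraries varied widely, from 77.7 to 4596 FPKM for Gm10925 and from 71.2 to 4436 FPKM for Gm28437. The difference between the stage changes of MZ-KO and WT passed for none of the 7 (limma, adjusted p from 0.783 to 0.994). All 37 mitochondrial genome genes were listed at 0, and whether reads of mitochondrial RNA were placed on the nuclear copies was not tested.

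The remaining 5 of the 12 match nuclear genes that are themselves expressed. Gm5612 and Gm6055 match Map1lc3b, an autophagy gene, and Gm6055 ran from 58.2 to 72.7 FPKM in early and from 3399 to 4828 FPKM in late libraries. Gm8203 matches H2afz and ran from 79.4 to 144 FPKM in early and from 2233 to 3566 FPKM in late libraries, Oaz1-ps matches Oaz1, and Gm12617 matches Gm11808. A pseudogene without introns has a short span, so where FPKM use the span as length, 1 read weighs more in its FPKM than in that of its parent gene.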
